A study of Homo sapiens with 6 samples.

Results

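The 10 genes described here encode proteins that a leukemia cell can present to natural killer (NK) cells, and they were taken by gene name from a table of 35410 genes. They are MICA, MICB, ULBP1, ULBP2, ULBP3, RAET1G, PVR, NECTIN2, CD58 and ICAM1, and each was listed once. Transcripts were counted by MACE-Seq, in which the 3′ end of each polyadenylated RNA is sequenced, in 3 biological replicates per cell line, named SEM::mock and SEM::EGR3. The labels give both as derivatives of SEM, an established human cell line of proB acute leukemia that carries KMT2A::AFF1, grown in the same medium. By the labels, SEM::mock carries an empty vector and SEM::EGR3 a vector for overexpression of EGR3, a zinc finger transcription factor, and RNA of both was extracted 48 h after transgene induction with 1 µg/mL doxycycline. The comparison asks which of these ligand genes differ in expression between the EGR3-overexpressing line and its control. Each condition is 1 cell line, so effects of EGR3 and any other difference between the lines cannot be told apart, and the replicates measure the spread within a line only.

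NK cells weigh activating against inhibitory signals from the surface of the cell they touch. MICA, MICB and the ULBP and RAET1 proteins are relatives of MHC class I molecules that appear on stressed, infected or transformed cells and are bound by the activating receptor NKG2D. PVR (CD155) and NECTIN2 (CD112) are cell adhesion proteins recognized by the activating receptor DNAM-1 (CD226) and by the inhibitory receptor TIGIT. CD58 is the ligand of CD2, and ICAM1 is a ligand of the integrin LFA-1, so that both hold the contact between an NK cell and its target together. RNA levels do not show how much protein is at the surface, which for MICA and MICB also depends on shedding by proteases.

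The genes lie on 3 chromosomes (GRCh38, GENCODE release 29). CD58 is on chromosome 1 from 116514535 to 116571039, minus strand. MICA (chromosome 6, 31399784 to 31415315, plus strand) and MICB (chromosome 6, 31494881 to 31511124, plus strand) are separated by 79.6 kb. The members RAET1G, ULBP2, ULBP1 and ULBP3 are part of a cluster of 186 kb on the other arm of chromosome 6, which begins at 149883375 with RAET1E and ends at 150069095 with ULBP3. ICAM1 (10270835 to 10286615), PVR (44643798 to 44663583) and NECTIN2 (44846175 to 44889228) are on chromosome 19, all on the plus strand. The gap between PVR and NECTIN2 is 183 kb, and ICAM1 ends 351 bases before its relative ICAM4.

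Promoter sequences from RefSeq (GRCh38.p14) were matched by symbol for all 10 genes, and the 250 bases before the RefSeq start are considered. That start differs from the GENCODE start for most members, and for MICA, MICB, ICAM1, PVR, NECTIN2, CD58 and ULBP2 it lies inside the GENCODE gene span. EGR proteins bind GC-rich DNA, and a search of both strands for the EGR sites GCGGGGGCG and GCGTGGGCG found 1 match among the 10 promoters, in ULBP1, where GCGGGGGCG begins 116 bases before the start. Among 35116 promoters of this length, 4.72% held GCGGGGGCG and 0.72% held GCGTGGGCG. The ICAM1 promoter holds a form of the NF-κB site, the capitals in its sequence below, 187 bases before its start, as do 0.0997% of all promoters. This form was looked up after the κB consensus had given no match among the 10, against 1.73% of all promoters. The heat shock element was likewise not found among the 10 and was present in 0.441% of all promoters. No motif overlapped another. These are matches of letters and no evidence of binding. Both promoters are shown because they hold the only matches to the letters searched. The matches are in capitals (ULBP1, chr6:149963693-149963942, plus strand, and ICAM1, chr19:10270870-10271119, plus strand, 5′ to 3′).
ULBP1: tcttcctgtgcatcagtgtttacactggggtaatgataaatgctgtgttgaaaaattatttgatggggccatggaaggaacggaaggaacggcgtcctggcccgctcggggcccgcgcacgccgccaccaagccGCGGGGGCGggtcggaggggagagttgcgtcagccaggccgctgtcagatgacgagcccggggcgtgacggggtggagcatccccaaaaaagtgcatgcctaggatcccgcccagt
ICAM1: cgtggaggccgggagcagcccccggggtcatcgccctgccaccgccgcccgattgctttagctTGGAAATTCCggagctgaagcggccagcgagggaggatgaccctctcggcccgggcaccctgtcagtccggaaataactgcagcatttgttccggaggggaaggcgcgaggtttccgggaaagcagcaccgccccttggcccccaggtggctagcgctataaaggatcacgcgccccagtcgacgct

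MICA and MICB are close relatives, and their promoters are shown because their transcripts are set against each other below. The 250 bases before each start were identical in 210 of 254 aligned positions (82.7%). In comparison, ULBP2 and RAET1G shared 53.8% and PVR and NECTIN2 47.7% by the same alignment. In the sequences (MICA, chr6:31403345-31403594, and MICB, chr6:31497895-31498144, both on the plus strand), capitals mark the 40 bases of each that differ from, or are missing in, the other gene.
MICA: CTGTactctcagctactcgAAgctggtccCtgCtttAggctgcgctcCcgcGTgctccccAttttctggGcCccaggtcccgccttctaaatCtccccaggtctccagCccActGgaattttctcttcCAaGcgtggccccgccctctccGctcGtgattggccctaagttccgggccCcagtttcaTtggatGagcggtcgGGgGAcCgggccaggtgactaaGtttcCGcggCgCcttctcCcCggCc
MICB: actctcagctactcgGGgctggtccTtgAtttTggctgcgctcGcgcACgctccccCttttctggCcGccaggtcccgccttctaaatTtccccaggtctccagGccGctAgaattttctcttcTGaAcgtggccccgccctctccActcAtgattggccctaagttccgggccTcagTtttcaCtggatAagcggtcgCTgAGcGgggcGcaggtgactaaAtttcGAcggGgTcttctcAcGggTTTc

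As reads come from transcript ends, the risk of confusing relatives was measured there. Among the stretches of 50 bases in the last 500 bases of the longest coding transcript, none of MICA, MICB, ULBP1, PVR, NECTIN2, CD58 or ICAM1 occurred in a transcript of another gene. Shared stretches made up 3.55% for RAET1G and 8.65% for ULBP2, both with RAET1L, and 25.7% for ULBP3, with RAET1K. Small values of ULBP2 and ULBP3 therefore carry that uncertainty. Only exact matches to the reference transcripts were counted, so that confusion through near-identical stretches, as between MICA and MICB, was not measured. The use of strand in counting is not given in the sources used here, but the only annotated gene with an exon across the last 1000 bases of a member was AC011511.5, antisense to ICAM1, which had 2 to 4 counts per library.

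Library totals over the listed genes were 5286115 to 6181388 counts for SEM::mock and 7293092 to 15106018 for SEM::EGR3, so that low levels were measured less precisely in SEM::mock. EGR3 had 6 to 10 counts per SEM::mock library and 4952 to 9768 per SEM::EGR3 library. Of the 11 proB cell markers checked, 8 did not exceed 3 counts in any SEM::mock library, and the summed level of the list was 2.64 to 5.86 CPM (counts per 1000000 counts, scaled by TMM) against 495 to 522 CPM in SEM::EGR3. Of these 8, DNTT and BLNK did not exceed 3 counts in any SEM::EGR3 library either, and VPREB1 had 5 to 8 counts there. PAX5 and EBF1, transcription factors that define the B lineage, had at most 2 and 0 counts per SEM::mock library, against means of 202 and 127 CPM in SEM::EGR3, and CD79A and IGLL1 had at most 3 and 1 counts, against 52.0 and 50.2 CPM. CDKN2A, MTAP and CDKN2B, neighbours in the genome, had at most 0, 1 and 0 counts per SEM::mock library, while CDKN2A had 1127 to 2356, MTAP 182 to 380 and CDKN2B 4 to 9 counts per SEM::EGR3 library. The 7 KMT2A fusion target genes summed to 21 to 24 CPM in SEM::mock and 740 to 779 CPM in SEM::EGR3, where FLT3 reached 318, PROM1 161, HOXA7 99.1 and HOXA10 61.6 CPM. Of these 4, HOXA10 was the one above 4 counts in SEM::mock, at 13.5 CPM. In the libraries labelled SEM::mock the defining markers of the labelled cell type were thus largely absent. Whether both sets of libraries come from 1 parental line was not tested, and every difference given here is one between libraries labelled SEM::mock and SEM::EGR3.

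Both sets of libraries contained erythroid and megakaryocyte transcripts, which summed to 4800 to 5090 CPM in SEM::mock and 6130 to 6370 CPM in SEM::EGR3. Most genes of this list did not go with its sum. Of the 12 tested, 4 were higher in SEM::EGR3 and 8 lower, beside 36.5% and 32.0% of all tested genes, with a median log2 fold change of -0.56. Of the most abundant globins, HBG2 was lower in SEM::EGR3 (log2 fold change -1.30), and HBZ, HBA1 and HBA2 were higher (1.29, 1.54 and 2.35), although near-identical globin copies can share reads. GATA1 was at 335 ± 9.65 and 285 ± 8.68 CPM and HBG1 at 132 ± 7.63 and 55.9 ± 6.08 CPM (SD, n = 3 each, SEM::mock first). Myeloid markers summed to 279 to 287 CPM in SEM::mock and 93.1 to 95.1 CPM in SEM::EGR3, with LYZ at 154 and 42.6, CD33 at 124 and 47.9, CSF3R at 4.77 and 3.16 and MPO at 0 and 0.402 CPM. T cell markers had similar sums, 86.6 to 98.8 CPM and 80.9 to 89.7 CPM, but different genes made them up. TRAC had 5 to 8 counts per SEM::mock library and 579 to 1110 per SEM::EGR3 library, whereas CD3D fell from 57.9 to 6.24, TRBC1 from 31.8 to 1.70 and CD3E from 2.58 to 0.372 CPM. NK cell markers summed to 42.6 to 49.0 CPM and 82.9 to 87.9 CPM. Of the 6 tested, 3 were higher in SEM::EGR3 and 2 lower, beside 36.5% and 32.0% of all tested genes. PRF1 and CD226, among the higher ones, passed the filter on low counts through SEM::EGR3 alone. They could enter the test only by being higher there. PRF1 (perforin) had 2 to 3 counts per SEM::mock library and 146 to 296 per SEM::EGR3 library, and NCR3 rose from 3.79 to 34.0 CPM, while NCR1 fell from 32.2 to 19.2 and NCAM1 from 4.90 to 2.62 CPM. In bulk RNA, fewer cells of a type and less RNA per cell cannot be told apart. The part of these lineage differences in the values below was not tested.

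At the level of the panel, 5 genes were lower and 2 higher in SEM::EGR3 than in SEM::mock, 2 did not pass the test and 1 was too low to test. The genes lower in SEM::EGR3 were MICB, ULBP2, PVR, NECTIN2 and ICAM1, and the genes higher were RAET1G and CD58 (quasi-likelihood test of edgeR, Benjamini-Hochberg adjusted p-value under 0.05 over 15465 tested genes). In this comparison 68.5% of all tested genes differed, 36.5% being higher and 32.0% lower, so that a call alone does not set a gene apart from the rest. A call with a log2 difference of 1 or more in either direction was found for 5 of the 9 tested members and for 25.2% of all tested genes. The 3 libraries of each line did not overlap for 7 of the 9 members, and for 70.1% of all tested genes. The median log2 fold change was -0.92 over the 9 members and 0.03 over all tested genes. RAET1G passed the filter on low counts through its SEM::EGR3 libraries alone and ULBP2 through its SEM::mock libraries alone, so that both could pass only by differing or by lying near the limit, and these counts are a description of the panel.

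**Figure D1:**
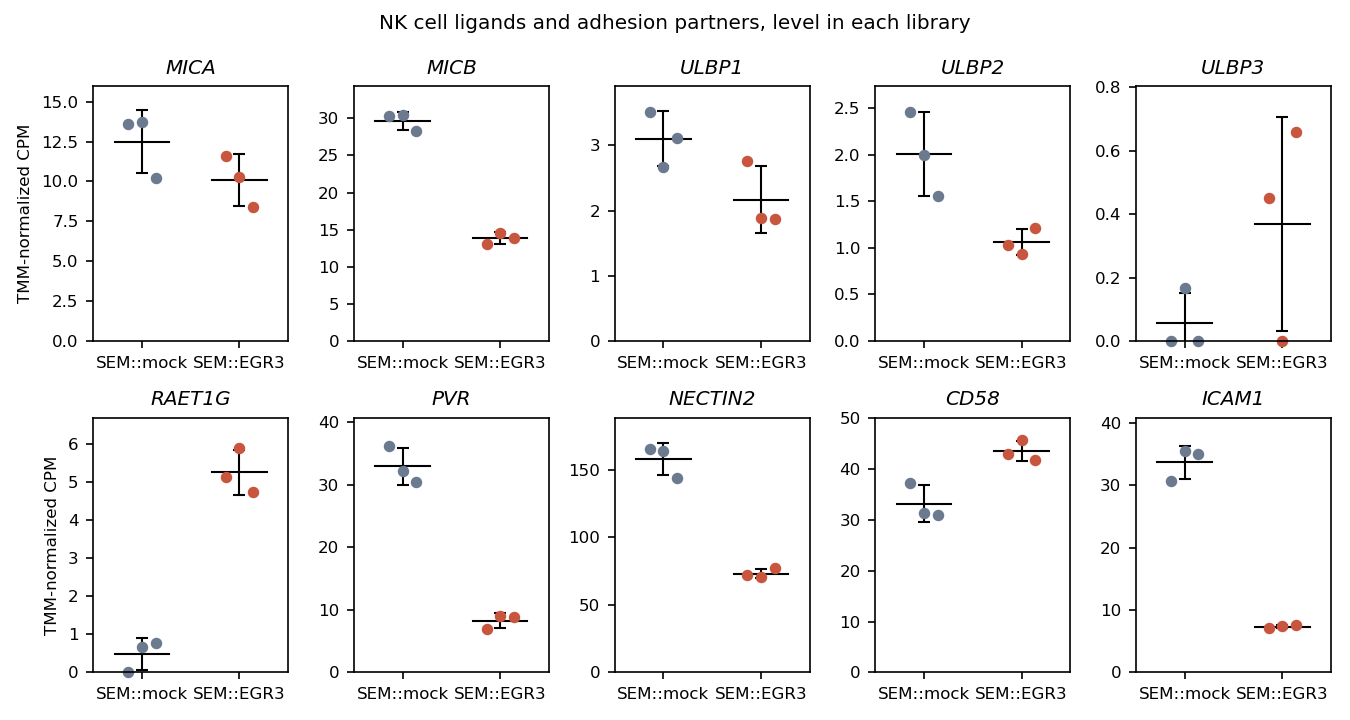
Levels of the 10 genes in TMM-normalized CPM on a linear axis that starts at 0, 1 panel per gene, with 1 point per library, the mean as a line and the SD (n = 3) as whiskers, which are cut off at 0. PVR, ICAM1, NECTIN2, MICB and ULBP2 separate downward and RAET1G and CD58 upward in SEM::EGR3, while the libraries of MICA, ULBP1 and ULBP3 overlap between the lines.

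MACE-Seq reads a transcript once at its end, so levels of different genes are given in CPM without a length correction. NECTIN2 was the most abundant of the 10 transcripts in each line. In SEM::mock, ICAM1, CD58, PVR and MICB followed with means of 33.6, 33.2, 33.0 and 29.7 CPM, and each overlapped with its next neighbour in this order. MICA, ULBP1 and ULBP2 came next without overlap, and RAET1G and ULBP3 were last and overlapped. In SEM::EGR3 the order was NECTIN2, CD58, MICB, MICA, PVR, ICAM1, RAET1G, ULBP1, ULBP2 and ULBP3. There, MICA overlapped with PVR and PVR with ICAM1, and no other neighbours did. The 10 genes summed to 284 to 319 CPM in SEM::mock and 163 to 166 CPM in SEM::EGR3.

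Among the NKG2D ligands, MICB was the most abundant. Its level was 30.3, 30.5 and 28.3 CPM in SEM::mock replicates 1 to 3 and 13.0, 14.6 and 13.9 CPM in SEM::EGR3 replicates 1 to 3. All SEM::mock libraries lay above all SEM::EGR3 libraries, at 2.17 times their level (95% interval 1.88 to 2.51). The log2 fold change was -1.12 ± 0.10 (SE, edgeR adjusted p = 5.29e-10). MICA, its neighbour on chromosome 6, was at 13.6, 13.7 and 10.2 CPM in SEM::mock and at 11.6, 10.3 and 8.37 CPM in SEM::EGR3. The lines overlapped for MICA, since SEM::mock replicate 3 was below SEM::EGR3 replicates 1 and 2. The log2 fold change of MICA was -0.29 (95% interval -0.60 to 0.03, adjusted p = 0.0989, edgeR), and it passed the threshold without SEM::mock replicate 3 (-0.42, adjusted p = 0.0274) or without SEM::EGR3 replicate 1 (-0.43, adjusted p = 0.0337). The 95% interval includes no difference and, at its far end, a level 1.52-fold higher in SEM::mock.

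Because scaling between libraries cancels in a ratio within a library, MICA was also expressed as a share of the summed MICA and MICB counts. This share was 30.9% (95% interval 25.2 to 37.1, exact Clopper-Pearson), 30.9% (25.4 to 36.9) and 26.4% (20.4 to 33.1) in SEM::mock replicates 1 to 3, and 47.0% (41.9 to 52.1), 41.4% (34.2 to 48.8) and 37.6% (30.9 to 44.7) in SEM::EGR3. The intervals cover counting error only. Every SEM::EGR3 library had a larger MICA share than every SEM::mock library, with means of 42.0 ± 4.72% and 29.4 ± 2.62% (SD, n = 3 each). The difference of 12.6 percentage points had a two-sided p = 0.1 in the exact permutation test over the 20 groupings, the smallest p that 3 libraries against 3 allow.

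RAET1G, which encodes the NKG2D ligand also called ULBP5, showed the largest absolute log2 fold change of the tested members and was nearly absent from SEM::mock. Its counts were 0, 4 and 4 there, against 80, 44 and 43 in SEM::EGR3. This corresponds to 0, 0.667 and 0.781 CPM against 5.14, 5.90 and 4.73 CPM, so that the lines were clearly apart. The log2 fold change was 3.41 ± 0.40 (SE, edgeR adjusted p = 4.16e-08), with a 95% interval from 6.03-fold to 18.8-fold. Its size rests on few SEM::mock counts, and without SEM::mock replicate 1, which had none, it was 2.81 (adjusted p = 4.43e-07). On the same scale, 94.2% of all tested genes had a smaller absolute change. RAET1G passed the filter on low counts through its SEM::EGR3 libraries alone, so that this rank is a description only.

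ULBP1 and ULBP2, both GPI-anchored NKG2D ligands of the same cluster, were low in each line. ULBP1 was at 3.52, 2.67 and 3.12 CPM in SEM::mock and at 2.76, 1.88 and 1.87 CPM in SEM::EGR3, from 14 to 43 counts per library. SEM::EGR3 replicate 1 lay within the range of SEM::mock. The log2 fold change of -0.44 had a 95% interval from -0.99 to 0.12 (adjusted p = 0.155, edgeR), which reaches from a level 1.99-fold higher in SEM::mock to one 1.09-fold higher in SEM::EGR3. ULBP1 is the member with the EGR letters in the promoter shown above. ULBP2 was at 2.46, 2.00 and 1.56 CPM in SEM::mock and at 1.03, 0.939 and 1.21 CPM in SEM::EGR3, which did not overlap. It rests on 7 to 16 counts per library, and its log2 fold change was -0.92 ± 0.33 (SE, edgeR adjusted p = 0.0167). ULBP2 passed the filter on low counts through its SEM::mock libraries alone. The call was lost with DESeq2 (adjusted p = 0.096) and without SEM::mock replicate 1 (adjusted p = 0.103) or SEM::EGR3 replicate 1 (adjusted p = 0.0557).

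ULBP3, also an NKG2D ligand, was counted 0, 1 and 0 times in SEM::mock, against 7, 0 and 6 times in SEM::EGR3. It did not pass the filter on low counts, and SEM::EGR3 replicate 2 without a count overlapped with SEM::mock. A count of 0 still allows up to 3 counts, or 0.528 CPM in SEM::mock replicate 1 and 0.402 CPM in SEM::EGR3 replicate 2, so that a difference was not detectable at this depth. The remaining genes of the cluster were also absent from SEM::mock at this depth. RAET1E (ULBP4) was at 0 counts throughout SEM::mock, against 8, 1 and 8 in SEM::EGR3, and RAET1L (ULBP6) had a single count, in SEM::EGR3 replicate 1. Neither was tested.

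Added up, the 8 NKG2D ligand genes reached 43.9 to 49.8 CPM in SEM::mock and 31.6 to 34.6 CPM in SEM::EGR3, and their composition differed. MICB made up 60.8%, 61.4% and 64.4% of the NKG2D ligand counts in SEM::mock and 37.7%, 43.3% and 43.9% in SEM::EGR3. RAET1G made up 0%, 1.34% and 1.78% in SEM::mock and 14.9%, 17.5% and 15.0% in SEM::EGR3. MICA held 23.1% to 27.5% and 26.5% to 33.5%, respectively. MICA and MICB together were thus the larger part of the NKG2D ligand transcripts in each library. Of the 5 tested genes of this family, 1 was higher and 2 lower, beside 36.5% and 32.0% of all tested genes. The median log2 fold change was -0.44. Among the called genes, RAET1G and ULBP2 each passed the filter on low counts only through the line where they were high.

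**Figure D2:**
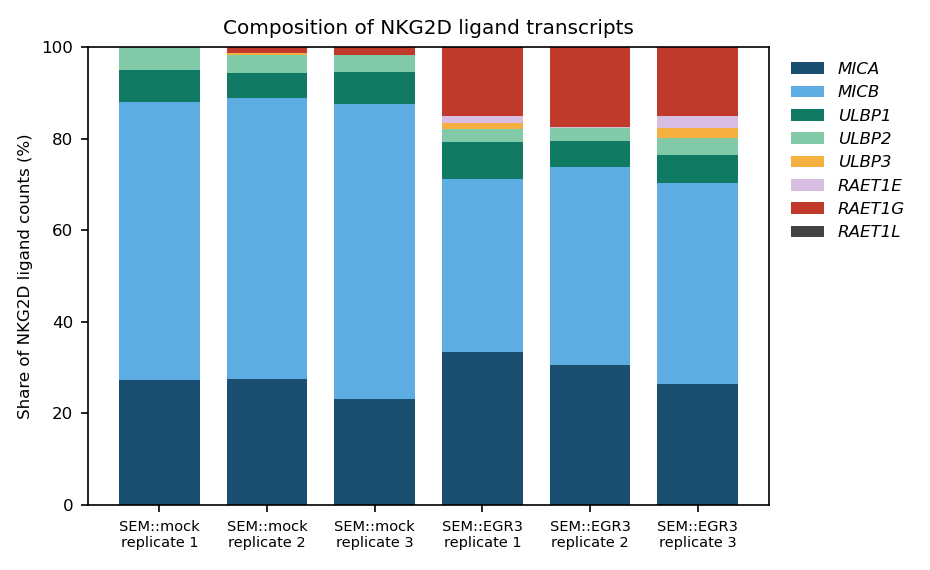
Share of each of the 8 NKG2D ligand genes in the summed counts of the family (y axis, percent), 1 bar per library. The MICB part is at 60.8% to 64.4% in SEM::mock and at 37.7% to 43.9% in SEM::EGR3, and the RAET1G part is at most 1.78% in SEM::mock and 14.9% to 17.5% in SEM::EGR3.

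PVR was at 36.3, 32.2 and 30.5 CPM in SEM::mock and at 6.87, 8.99 and 8.92 CPM in SEM::EGR3. The lowest SEM::mock library was thus well above the highest SEM::EGR3 library, and SEM::mock exceeded SEM::EGR3 by 4.12-fold (95% interval 3.46 to 4.90). The log2 fold change of PVR was -2.04 ± 0.12 (SE, edgeR adjusted p = 1.69e-13), a change larger in size than that of 89.6% of all tested genes. NECTIN2, the second ligand of DNAM-1, was at 165, 164 and 144 CPM in SEM::mock and at 71.9, 70.3 and 76.9 CPM in SEM::EGR3. Here, too, the lines did not overlap, with a log2 fold change of -1.11 ± 0.06 (SE, edgeR adjusted p = 8.44e-14) and a level in SEM::mock 2.16 times that in SEM::EGR3 (95% interval 1.97 to 2.37). With 524 to 1119 counts per library, NECTIN2 was the most precisely measured member.

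NECTIN1 and NECTIN3, adhesion proteins that bind other nectins between cells, were higher in SEM::EGR3. NECTIN1 was found with 4, 4 and 1 counts in SEM::mock but with 66, 27 and 46 in SEM::EGR3, a log2 fold change of 2.98 ± 0.37 (SE, edgeR adjusted p = 1.29e-07). NECTIN3, which binds NECTIN2 and PVR, was found with 1, 0 and 0 counts in SEM::mock but with 232, 89 and 130 in SEM::EGR3, or 14.9, 11.9 and 14.3 CPM. Setting SEM::mock to 3 counts per library makes this at least 25.5-fold higher. The test, which used the counts as observed, gave NECTIN3 an adjusted p = 5.25e-14 (edgeR). CADM1, the ligand of the NK and T cell receptor CRTAM, had 0 counts in SEM::mock, while 23, 8 and 14 were found in SEM::EGR3. By the same floor CADM1 was at least 2.53-fold higher, but it was too low for the test. NECTIN4 had a single count in all 6 libraries. Of the 4 tested genes of this family 2 were higher and 2 lower, beside 36.5% and 32.0% of all tested genes. However, NECTIN1 and NECTIN3 passed the filter on low counts through SEM::EGR3 alone and could enter the test only by being higher there. The summed level was 175 to 202 CPM in SEM::mock and 95.9 to 107 CPM in SEM::EGR3.

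Besides RAET1G, CD58 was the member that was higher in SEM::EGR3. It was at 37.3, 31.4 and 30.9 CPM in SEM::mock and at 43.0, 45.6 and 41.8 CPM in SEM::EGR3. The libraries did not overlap, but the difference was small, at 1.31-fold (95% interval 1.16 to 1.47). Its log2 fold change was 0.38 ± 0.09 (SE, edgeR adjusted p = 0.000319), and 43.3% of all tested genes changed by less. For CD48, a relative of CD58 and the ligand of the NK receptor 2B4, every SEM::mock library held 2 counts, against 181, 86 and 110 in SEM::EGR3. In CPM the SEM::EGR3 values were 11.6, 11.5 and 12.1, by the same floor at least 21.8-fold higher. The test on the counts as observed gave an adjusted p = 1.60e-13 (edgeR). CD48 passed the filter through SEM::EGR3 alone.

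ICAM1 had the strongest decrease of the tested members. Its level was 30.6, 35.4 and 35.0 CPM in SEM::mock and 7.07, 7.38 and 7.59 CPM in SEM::EGR3. The SEM::EGR3 libraries were close to each other and all far below SEM::mock, which was 4.60-fold higher (95% interval 3.91 to 5.41). The log2 fold change was -2.20 ± 0.11 (SE, edgeR adjusted p = 9.84e-15), beyond that of 90.6% of all tested genes.

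The related ICAM genes on chromosome 19 did not all follow ICAM1. ICAM4, a red cell surface protein whose gene begins 351 bases behind ICAM1, was at 36.3, 39.4 and 32.4 CPM in SEM::mock and 7.52, 10.9 and 7.37 CPM in SEM::EGR3, and fell by 2.12 ± 0.13 (SE, edgeR adjusted p = 1.62e-13) on the log2 scale. ICAM5, 1458 bases further, was at 27.6 ± 2.45 and 26.9 ± 1.28 CPM (SD, n = 3 each), and its log2 fold change of -0.03 had a 95% interval from -0.23 to 0.16 (adjusted p = 0.768, edgeR). ICAM3, a leukocyte ligand of LFA-1, fell by 1.47 on the log2 scale (adjusted p = 4.78e-12, edgeR). Elsewhere, ICAM2 on chromosome 17, also a ligand of LFA-1, fell by 0.34 (adjusted p = 0.00191, edgeR). F11R on chromosome 1, a junction protein that also binds LFA-1, fell by 0.62 (adjusted p = 2.40e-08, edgeR). The list of 8 adhesion partners thus held 2 higher genes, CD48 included, 5 lower ones and 1 that did not pass. Over all tested genes, 36.5% were higher and 32.0% lower. The list had a median log2 fold change of -0.48 and a summed level of 279 to 291 CPM in SEM::mock against 184 to 201 CPM in SEM::EGR3. The difference between the fold changes of ICAM1 and ICAM5 was not tested.

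**Figure D3:**
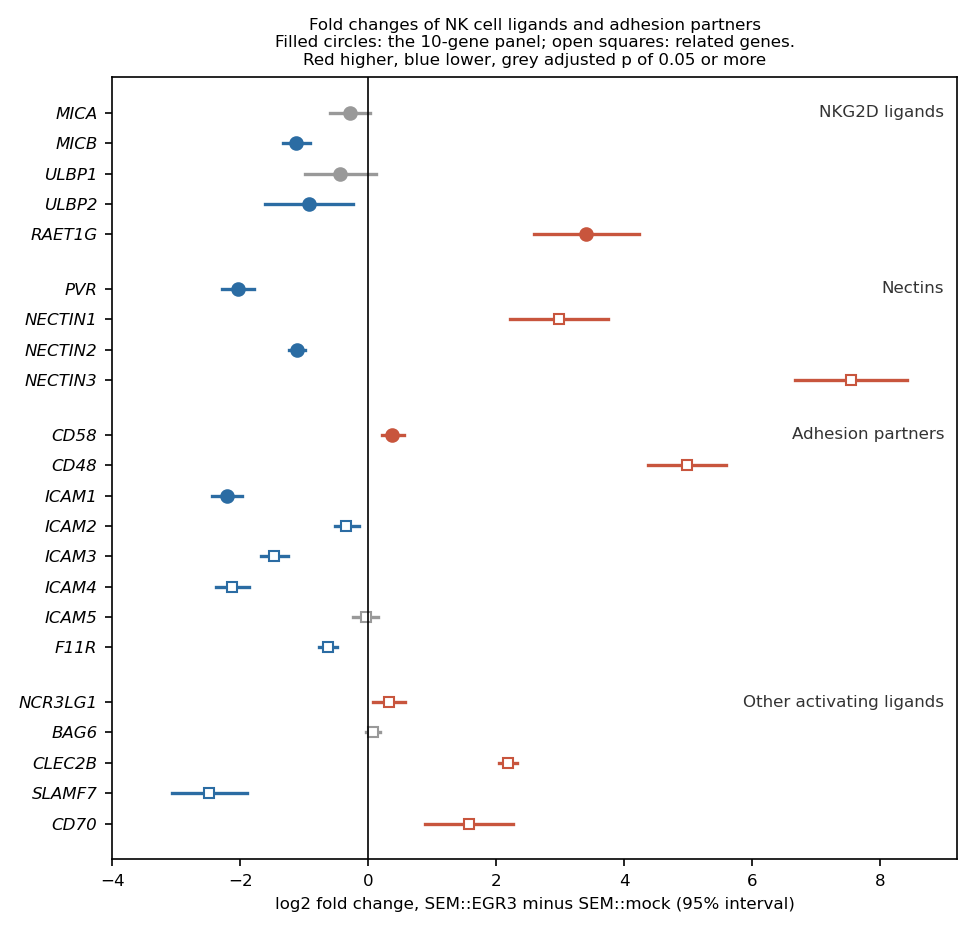
Log2 fold change of SEM::EGR3 against SEM::mock (x axis) with 95% intervals from edgeR for the tested NKG2D ligands, nectins, adhesion partners and other activating ligands. Filled circles, members of the panel, lie mostly left of 0 apart from RAET1G (3.41) and CD58 (0.38), and the fitted positions of NECTIN3 and CD48 depend on how counts near 0 in SEM::mock are treated.

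Ligands of other activating NK receptors were mixed, with 3 of 5 tested genes higher and 1 lower, beside 36.5% and 32.0% of all tested genes. CLEC2B (AICL), the ligand of NKp80, was at 39.1, 31.9 and 37.1 CPM in SEM::mock and 163, 167 and 160 CPM in SEM::EGR3, and rose by 2.19 ± 0.07 (SE, edgeR adjusted p = 1.12e-18) on the log2 scale. CD70, the ligand of CD27, had 4 to 12 counts in SEM::mock and 33 to 50 in SEM::EGR3, a log2 fold change of 1.57 (adjusted p = 0.000184, edgeR). NCR3LG1 (B7-H6), a ligand of NKp30, rose by 0.32 (adjusted p = 0.0231, edgeR), although its SEM::EGR3 replicate 3 at 17.7 CPM lay below SEM::mock replicate 2 at 17.8 CPM. BAG6, a second NKp30 ligand, was at 234 ± 8.02 and 246 ± 6.79 CPM (SD, n = 3 each), and its log2 fold change of 0.07 had a 95% interval from -0.04 to 0.18 (adjusted p = 0.247, edgeR). SLAMF7, which binds itself on a neighbouring cell, fell by 2.48 (adjusted p = 3.79e-08, edgeR), from 26 to 39 counts per library to 5 to 19. SLAMF6 had 8 to 15 counts per library and was not tested. SLAMF7 passed the filter through SEM::mock alone and CD70 through its SEM::EGR3 libraries, each the group where it was high.

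On the inhibitory side, 6 of the 8 tested genes were higher in SEM::EGR3 and 1 lower, beside 36.5% and 32.0% of all tested genes. The median log2 fold change was 1.32, and 1 of the higher genes, HLA-F, passed the filter through SEM::EGR3 alone. HLA-B, which engages inhibitory KIR receptors, rose by 1.61 on the log2 scale, and HLA-E, the ligand of NKG2A, by 0.66 (adjusted p = 2.44e-16 and 3.04e-08, edgeR). HLA-B was at 40.7 ± 2.39 CPM in SEM::mock and 124 ± 5.05 CPM in SEM::EGR3 (SD, n = 3 each). B2M, the shared light chain of these molecules, fell by 0.29 (adjusted p = 1.84e-05, edgeR). HLA class I genes are similar in sequence and polymorphic, so that reads may be split between them.

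Of the 7 genes for shedding of MICA and MICB, 5 were higher and 2 lower, with a median log2 fold change of 0.48. Among the higher genes, MMP14 and MMP9 passed the filter through SEM::EGR3 alone. The matrix protease MMP14 was at 4 to 8 counts per SEM::mock library and at 77.6 ± 1.26 CPM (SD, n = 3) in SEM::EGR3, a log2 difference of 6.01 ± 0.15 (SE, edgeR adjusted p = 2.76e-21). The sheddase ADAM10 rose from 85.3 ± 0.314 to 159 ± 4.39 CPM (SD, n = 3 each), ADAM17 by 0.34 and PDIA6, a disulfide isomerase that takes part in MICA release, by 0.48 on the log2 scale (adjusted p = 7.21e-13, 3.92e-05 and 1.09e-08, edgeR). Among the 6 genes for death receptors and protection from NK cell granules, 5 were lower and 0 higher, with a median log2 fold change of -1.25. For comparison with both lists, 36.5% of all tested genes were higher and 32.0% lower. TNFRSF10B (TRAIL receptor 2) fell by 1.98, CFLAR, an inhibitor of caspase 8 activation, by 1.65, TNFRSF1A by 0.85 and SERPINB9, the inhibitor of granzyme B, by 0.62 (adjusted p from 9.49e-18 to 1.42e-08, edgeR). FAS was the member that did not pass (log2 fold change -0.30, 95% interval -0.82 to 0.22, adjusted p = 0.296, edgeR).

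The DNA damage and heat stress regulators known to act on NKG2D ligand genes showed 4 higher, 1 lower and 3 that did not pass among 8 tested. Their median log2 fold change was 0.32, and 36.5% of all tested genes were higher and 32.0% lower. E2F1 rose by 0.57 (adjusted p = 8.83e-07, edgeR) and CHEK1 fell by 0.41 (adjusted p = 1.88e-05, edgeR). HSF1 was at 120 ± 7.84 and 124 ± 4.23 CPM (SD, n = 3 each), and it had a log2 difference of 0.04 and a 95% interval from -0.08 to 0.17 (adjusted p = 0.558, edgeR). Among the lists of this and the preceding paragraphs, called genes ranged from 3 of 5 for the NKG2D ligands to 7 of 7 for shedding, beside 68.5% of all tested genes, and no list was tested as a set.

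**Figure D4:**
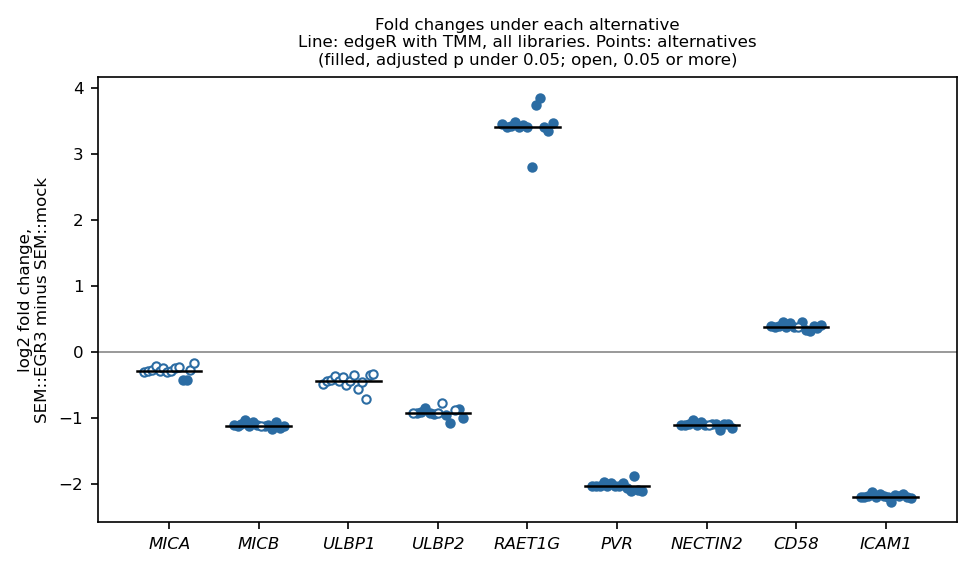
Log2 fold change of each of the 9 tested members (y axis) in the analysis with TMM and all libraries (line) and under the alternatives (points, filled with an adjusted p-value under 0.05). No member changed sign under these alternatives, MICA lay between -0.43 and -0.17, and among the 7 called members open points occur for ULBP2 and, with a minimum fold in the test, for MICB, NECTIN2 and CD58.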

How the data were processed

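MACE-Seq libraries of 3 biological replicates each of SEM::mock and SEM::EGR3 were analysed. Per the file, the authors deposited unnormalized counts of every gene in each library, CPM values under the name TPM (each count divided by a library total of which the listed genes made up 73.6% to 75.8%), and a signal column of counts divided by 1 size factor per library. Results rest on the counts alone. Columns with the authors' own fold changes and p-values were not used, nor were their columns per group, and 0 columns per library were left unassigned. The processing notes of the submitters name bcl2fastq, Bowtie2, HTSeq and GRCh38, and versions, annotation and strand setting are not given in the sources used here. The column headings spell the gene ERG3 and were read as the EGR3 line.

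The counts were fitted with edgeR 4.0.16 under R 4.3.3 (filterByExpr, TMM, glmQLFit and glmQLFTest, no further term, two-sided), with Benjamini-Hochberg adjustment over 15465 genes and a threshold of 0.05. Standard errors were derived from the F statistic. The script was tested on simulated counts. A gene with at most 3 counts in each library of a line was treated as at the detection limit. Its fold was given as a lower bound at 3 counts per library, which covers counting error only. The list medians printed above are the same with such genes at their bound, which does not extend to lists without a printed median. The spread among replicates of a line exceeded the noise of counting.

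The members and gene lists were chosen with earlier results of these data known. All members, all genes of the NKG2D ligand, nectin, adhesion and activating ligand lists and the 4 most abundant genes of each other ligand, pathway or marker list, with PAX5, EBF1, GATA1, HBG1, MTAP and CDKN2A, were named. FAS, HLA-F and MMP9 were named beyond this rule, after their values were seen. KLRK1, PF4 and ELANE were not analysed here. A few genes that the rule names are not reported here. Positions are from GENCODE release 29 (97.0% of identifiers found).

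The alternatives were DESeq2 1.42.0, RLE, upper-quartile or no normalization factors, the replicate number as a block, no filter, a filter of 10 or more counts per library throughout, a minimum absolute log2 fold change of 1, leaving out each library and a floor of 10 counts.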

Additional observations from a re-analysis of the deposited data

How the results depend on the processing

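PVR, ICAM1, RAET1G and ULBP1 kept their direction and their side of the threshold under every alternative that gave a value. With a minimum absolute log2 fold change of 1 in the test, 2768 genes were called in all, 1 member was called higher and 2 lower, and MICB (adjusted p = 0.206), NECTIN2 (adjusted p = 0.0704), CD58 and ULBP2 lost the call (edgeR), as follows from the stricter hypothesis. With at least 10 counts in every library, 1 member was called higher, since RAET1G is removed by that filter, as is ULBP2. With DESeq2, 1 gene of the NKG2D ligand family was called lower in place of 2, as ULBP2 did not pass. MICA passed without SEM::mock replicate 3 or SEM::EGR3 replicate 1, and ULBP2 did not pass without SEM::mock replicate 1 or SEM::EGR3 replicate 1. Leaving out each library in turn moved RAET1G between 2.81 and 3.86, MICA between -0.43 and -0.17, ULBP1 between -0.71 and -0.33 and ULBP2 between -1.08 and -0.77 on the log2 scale. The lower bounds of NECTIN3 and CD48 became 7.65-fold and 6.55-fold with a floor of 10 counts. Libraries of the same replicate number did not deviate together from their line means (correlations of -0.14, -0.09 and -0.04), so the numbers do not pair the samples. With the replicate number as a block, 10082 genes were called in place of 10593, with 2 members higher and 5 lower, and no member's call changed. No normalization factors moved the median of all genes from 0.03 to 0.11 and reversed no member. Depth limits ULBP1, ULBP2, ULBP3 and RAET1G, which had at most 80 counts in any library.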
